A study of Mus musculus with 10 samples.

Results

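The nuclear genes for the respiratory chain and ATP synthase were examined in mouse CD8 T cells kept in low glucose for a short or a long period, with or without acetate. The genes were chosen by symbol. They were the protein-coding genes whose symbols begin with Nduf, Uqcr, Cox4, Cox5, Cox6, Cox7, Cox8 or Atp5, together with Sdha, Sdhb, Sdhc, Sdhd and Cycs. This gave 94 genes of the 53465 in the count files. By complex they were 36 genes of complex I, 8 complex I assembly factors (Ndufaf1 to Ndufaf8), 4 of complex II, 8 of complex III, 20 of complex IV, 16 of ATP synthase, the cytochrome c gene Cycs, and Atp5s, which shares the Atp5 prefix but is not counted here as a subunit.

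The respiratory chain sits in the inner mitochondrial membrane. Complexes I and II pass electrons from NADH and succinate to ubiquinone, complex III passes them on to cytochrome c, and complex IV delivers them to oxygen. Complexes I, III and IV pump protons, and ATP synthase, also called complex V, uses the return flow of protons to make ATP. Most subunits are encoded in the nucleus, but the catalytic cores of complexes I, III and IV and part of the membrane sector of ATP synthase are also built from genes of mitochondrial DNA, so that 2 genomes supply each of these machines. Complex II is encoded in the nucleus alone. In T cells, activation is known to raise both glycolysis and mitochondrial content, and low glucose leaves mitochondrial respiration as a main route to ATP.

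The cells were OT-I CD8 T cells of C57BL/6 mice, from spleens and peripheral lymph nodes, whose transgenic receptor recognises an ovalbumin peptide. All were activated with that peptide and interleukin-2 in 25 mM glucose for 3 days, then moved to 1 mM glucose, and 4 h of stimulation with the phorbol ester PMA plus ionomycin preceded RNA extraction in every group. The groups were d9 with acetate (120 h of restriction, 5 mM sodium acetate for the last day, n = 3), d9 without acetate (120 h, n = 3), d5 with acetate (24 h of restriction, 5 mM acetate throughout it, n = 2) and d5 without acetate (24 h, n = 2). At d9 the acetate therefore followed earlier restriction without it, and at d5 it did not. No group of cells left in high glucose was analysed here, the labels do not give the age of the mice or the number of animals, and 3 days of activation plus 1 or 5 days of restriction do not add up to the labelled day. Whether the replicates came from different cultures or mice is not stated, so the p-values cover only the spread among these libraries, which may be technical.

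Polyadenylated RNA was read to 16.59 to 24.66 M counts per library. Every d9 library was deeper (22.97 to 24.66 M) than every d5 library (16.59 to 17.97 M). The 8 CD8 T cell markers examined were abundant in every library, with Cd8a between 306 and 711 CPM and Cd3e between 114 and 248 CPM (CPM is a gene's count per 1 M TMM-scaled counts). Several defining markers of other lineages were at or near 0, with maxima of 0.897 CPM for Lyz2, 0.504 CPM for Adgre1 and 0.263 CPM for Ncr1, although Zbtb7b (106 to 163 CPM), Cd40lg (1.21 to 11.3 CPM), Cd79b (0.717 to 3.84 CPM), Cd68 (4.47 to 11.8 CPM), Itgax (1.60 to 3.39 CPM), Ighm (77.3 to 203 CPM), Zbtb46 (16.4 to 97.8 CPM), Fcer1g (4.97 to 29.3 CPM) and Klrb1c (1.23 to 25.9 CPM) were not. In bulk RNA, fewer cells of a type and less RNA per cell cannot be told apart. At d9, replicate 2 with acetate and replicate 1 without it stood apart: 15.0% and 15.4% of their counts fell on 78 genes for cytosolic ribosomal proteins, against 10.7 to 14.0% in the other 8 libraries. Of the 89 respiratory genes that passed the filter on low counts, 83 had the highest CPM of their group in d9 replicate 2 with acetate, and 74 in d9 replicate 1 without acetate. Values without these 2 libraries are given beside the results below that they move most.

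Promoter windows were available for 75 of the 94 genes in RefSeq (GRCm38.p6, 250 bases before to 50 bases after each start). They were searched on both strands for motifs of factors known to act on respiratory genes: NRF1 (GCGCA and GCGC with any base between them), the ETS site bound by GABP (CCGGAAGT), YY1 (AAGATGGCG) and the oestrogen-related receptors (TCAAGGTCA), and for the E-box CACGTG and the CCAAT box. The NRF1 motif was found for 19 of the 75 genes, which is 25.3%, against 5.19% of all 27025 genes with windows. The YY1 motif was found for 10.7% against 1.64% of all genes, the receptor motif for 2.67% against 0.466%, and the GABP site for 6.67% against 4.31%. The E-box stood in 6.67% of the windows, against 8.09% over all genes, and CCAAT in 45.3%, against 41.1%. A match is a description of the letters and not evidence of binding.

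The promoters of 6 genes are shown because results below turn on these genes: Ndufv3 and Cox7a1, which were higher at d9 in both acetate states, Cox6b2 and Ndufa4, which were lower, Ndufaf4, whose level was higher in every acetate library than in the libraries without acetate of the same day, and the c-ring gene Atp5g3. Ndufaf4 was past the adjusted p threshold in neither acetate comparison of the main fit. Each run is the longest stretch of the 250 bases before the RefSeq start that lies outside all annotated exons, read 5′ to 3′ on the strand of the gene. Capitals mark motifs: CCAAT, or ATTGG where it is read on the other strand, in Ndufv3, Cox7a1, Cox6b2 and Atp5g3; the NRF1 motif in Ndufaf4; and in Atp5g3 also an E-box and TGACCTTGA, the oestrogen-related receptor motif on the other strand. None of the motifs searched was found in the window of Ndufa4. Matches in a window but outside the printed run are not shown. These were an NRF1 motif after the start of Atp5g3 and further CCAAT matches in Ndufv3 and Cox6b2.
Ndufv3, chr17:31519981-31520114, plus strand: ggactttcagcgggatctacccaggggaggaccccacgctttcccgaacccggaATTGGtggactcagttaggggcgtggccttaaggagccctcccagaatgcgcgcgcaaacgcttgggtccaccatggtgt
Cox7a1, chr7:30183921-30184143, plus strand: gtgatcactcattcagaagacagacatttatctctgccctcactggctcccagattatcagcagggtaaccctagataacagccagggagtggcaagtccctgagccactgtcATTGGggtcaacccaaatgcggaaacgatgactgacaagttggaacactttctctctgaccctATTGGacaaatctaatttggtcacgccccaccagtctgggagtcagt
Cox6b2, chr7:4753095-4753225, minus strand: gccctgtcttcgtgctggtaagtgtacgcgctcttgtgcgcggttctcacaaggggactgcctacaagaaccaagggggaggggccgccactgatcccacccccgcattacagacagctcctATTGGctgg
Ndufa4, chr6:11907498-11907700, minus strand: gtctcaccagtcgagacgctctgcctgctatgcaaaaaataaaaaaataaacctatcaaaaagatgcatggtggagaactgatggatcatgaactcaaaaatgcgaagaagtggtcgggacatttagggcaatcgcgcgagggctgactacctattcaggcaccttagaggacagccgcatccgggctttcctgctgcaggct
Ndufaf4, chr4:24897833-24898082, plus strand: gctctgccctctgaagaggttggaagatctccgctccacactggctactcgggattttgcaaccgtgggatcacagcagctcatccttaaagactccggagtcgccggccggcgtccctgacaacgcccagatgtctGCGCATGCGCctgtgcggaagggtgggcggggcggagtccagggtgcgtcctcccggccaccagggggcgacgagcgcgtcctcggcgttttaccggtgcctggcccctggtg
Atp5g3, chr2:73911327-73911576, minus strand: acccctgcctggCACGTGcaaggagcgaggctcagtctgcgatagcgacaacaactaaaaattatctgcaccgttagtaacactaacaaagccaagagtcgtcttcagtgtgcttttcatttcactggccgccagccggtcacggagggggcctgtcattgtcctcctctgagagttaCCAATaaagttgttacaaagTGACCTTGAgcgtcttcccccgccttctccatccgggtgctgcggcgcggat

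The respiratory genes together made up 1.10 to 1.46% of all counts. Their summed expression was 10939, 14420.4 and 11685 CPM in the d9 libraries with acetate and 15066, 12677 and 13653 CPM in those without. It was 11226 and 11721 CPM at d5 with acetate and 12067 and 11019.8 CPM at d5 without it. After TMM scaling the d9 libraries without acetate, at 12677 to 15066 CPM, were all above the d5 libraries without acetate, at most 12067 CPM. As an unscaled share of counts these groups overlapped, with 1.25% in d9 replicate 2 and 1.28% in d5 replicate 1. The d9 libraries with and without acetate overlapped through replicate 2 with acetate. ATP synthase genes held the largest part, at 5249 ± 736 CPM in d9 with acetate, 5673 ± 369 CPM in d9 (SD, n = 3 each), 4778 ± 117 CPM in d5 with acetate and 4718 ± 321 CPM in d5 (SD, n = 2 each). Complex I summed to 2760 ± 444 CPM in d9 with acetate, 3196 ± 345 CPM in d9, 2656 ± 96.9 CPM in d5 with acetate and 2654 ± 149 CPM in d5. The spread between replicates of one d9 group was thus about as large as the difference between the d9 groups.

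**Figure D1:**
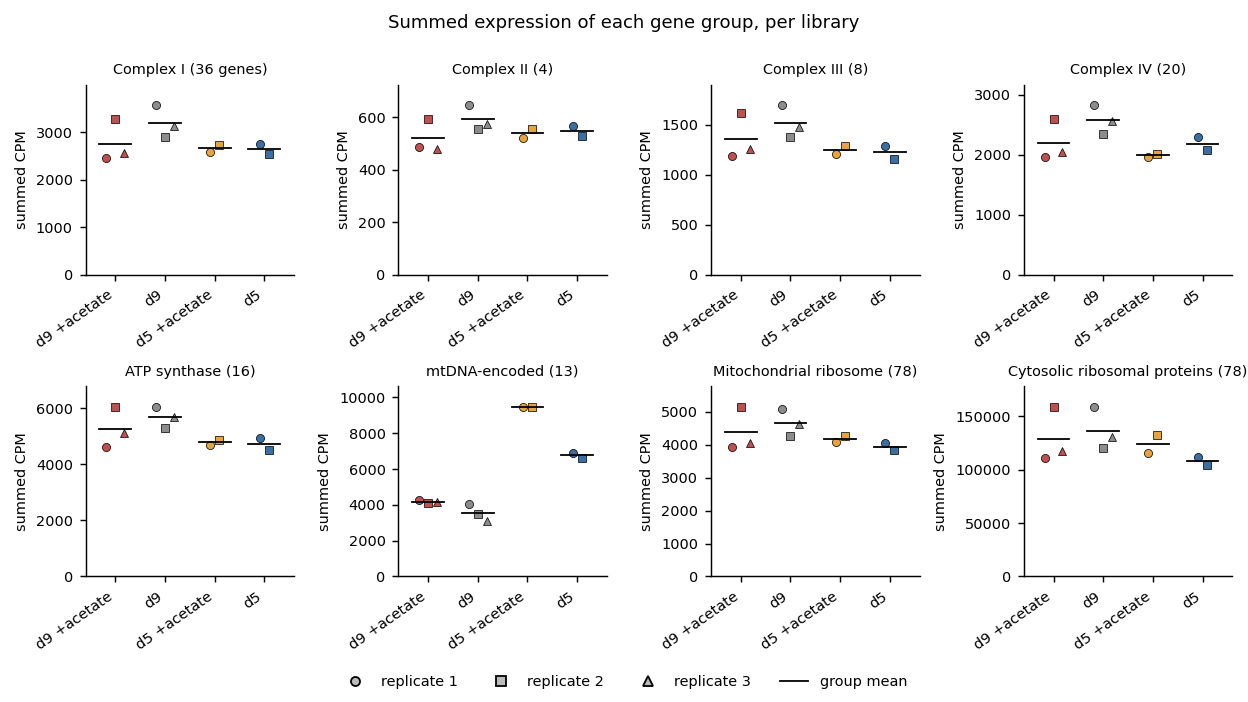
Summed CPM (TMM-scaled, linear axis) of each gene group in each of the 10 libraries; symbols are replicates and bars are group means. Replicate 2 of d9 with acetate and replicate 1 of d9 are the highest of their groups for the 5 nuclear-encoded complexes and for both ribosomal lists, while the mtDNA-encoded sum is lower in every d9 library (3079 to 4259 CPM) than in every d5 library (6631 to 9475 CPM).

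The mRNAs encoded in mitochondrial DNA took the other course. The 13 mRNAs encoded in mitochondrial DNA summed to 4259, 4104 and 4169 CPM in d9 with acetate and 4049.6, 3515 and 3079 CPM in d9, against 9475 and 9471 CPM in d5 with acetate and 6918 and 6631 CPM in d5. The ratio of nuclear to mitochondrial respiratory transcripts was 2.57, 3.51 and 2.80 in d9 with acetate and 3.72, 3.61 and 4.43 in d9, against 1.18 and 1.24 in d5 with acetate and 1.74 and 1.66 in d5. The ratio of every d9 library was thus above that of every d5 library, also in the libraries without a high ribosomal share. The gene mt-Co1 made up most of each mitochondrial sum, so sums and ratios mostly follow it. Only 8 of the 13 genes passed the filter on low counts, and among these mt-Nd3 had just 0.804 to 3.47 CPM. How completely the mitochondrial mRNAs were counted was not tested, so the ratio describes counted reads. In d9, mt-Co1 had 2760, 3019 and 2806 CPM with acetate and 2978, 2242 and 1930 CPM without. In d5, it had 6478 and 7017 CPM with acetate and 4195 and 4148 CPM without. In all 8 tested mtDNA-encoded genes every d9 library lay below every d5 library of the same acetate state, beside 33.4% of all genes. Of the 8 mtDNA-encoded genes that could be tested, 7 fell at d9 against d5 without acetate, where 21.2% of all genes fell, and 5 fell with acetate, where 23.1% did, among them mt-Nd1, a membrane subunit of complex I, with log2 changes of -1.42 without acetate and -1.31 with acetate.

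Levels differed widely between subunits of one complex. Per kb of exon, averaged over the 10 libraries, the highest levels were those of Atp5b, the catalytic β subunit of ATP synthase, at 412 CPM per kb, Cox8a of complex IV at 352, Uqcr10 of complex III at 199, Ndufb11 of complex I at 139, Sdhd, a membrane anchor of complex II, at 104, and Ndufaf8 among the assembly factors at 22.8 CPM per kb. Cycs, the electron carrier between complexes III and IV, stood at 24.1 CPM per kb. These orders depend on the length used. With the length of the principal transcript in place of all exons, chosen after seeing the data, Atp5b stayed first in its complex at 911 CPM per kb, and Ndufaf8 among the assembly factors, but other genes came first in complexes I to IV: Ndufa7 of complex I at 225, Sdhb of complex II at 161, Uqcrh of complex III at 332, against 267 for Uqcr10, and Cox4i1 of complex IV at 692, against 396 for Cox8a.

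Complex IV has subunits with alternative genes, and in most of these sets 1 gene carried nearly all of the expression. The exception was Cox7a2 and Cox7a2l, at 94.4 to 171 and 172 to 282 CPM per kb, beside 1.26 to 8.12 CPM per kb for Cox7a1. Cox6a1, the ubiquitous form of subunit 6A, was read at 156 to 281 CPM, while Cox6a2, the form known from heart and skeletal muscle, stood at 4.95 to 16.8 CPM, or 2.30 to 5.65% of the counts of the pair. Myh6, a heart muscle gene, had 0 counts in all libraries and Ckm, the muscle creatine kinase, at most 0.870 CPM. Cox4i1 was read at 422 to 703 CPM, and Cox4i2, known as the lung and low-oxygen form, had 61 counts in all 10 libraries together. Cox7b2, Cox8b and Cox8c had 0 counts in every library, and Ndufa4l2, a hypoxia-inducible relative of Ndufa4, had 42 counts in all. These 5 genes failed the filter on low counts and were not tested, which left 89 of the 94. The c ring of ATP synthase is encoded by 3 genes for the same mature protein, and all of them were expressed, Atp5g3 most per kb at 115 CPM per kb, then Atp5g2 at 69.7 and Atp5g1 at 36.6. The values of the 3 c-ring genes did not overlap across the 10 libraries when taken per kb of all exons. Like the orders above, this order may depend on the length used, and it is given for the length of all exons alone.

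**Figure D2:**
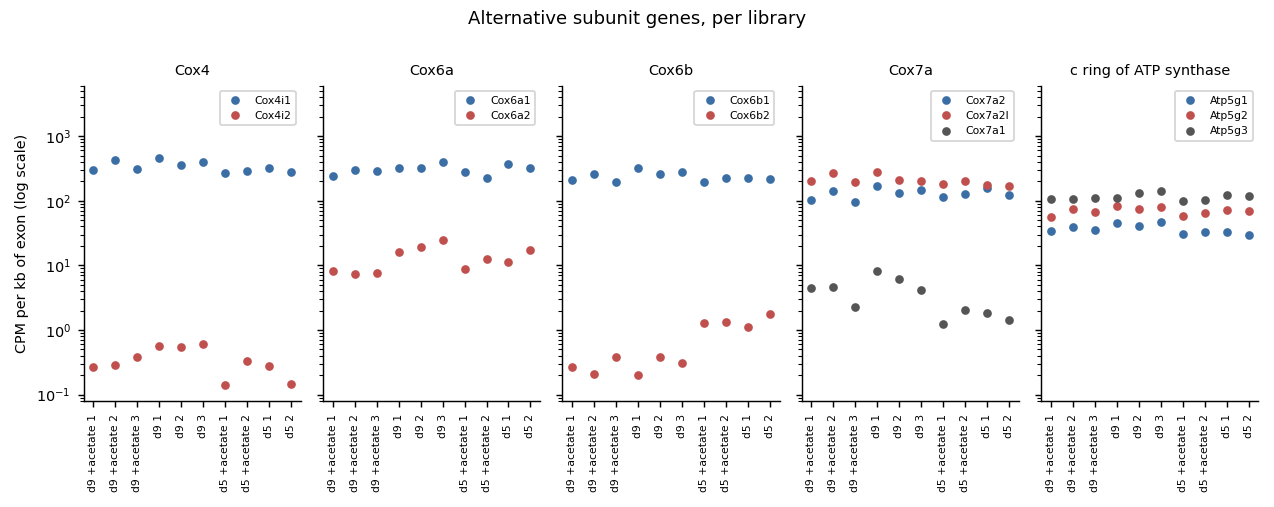
CPM per kb of exon (log axis) of alternative subunit genes in each library, with d9 libraries left of d5 libraries. The minor genes of complex IV lie far below the major ones: Cox6a2 between 7.27 and 24.7 CPM per kb beside Cox6a1 between 222 and 399.6 CPM per kb, and Cox6b2 between 0.202 and 1.79 CPM per kb beside Cox6b1 between 194 and 321 CPM per kb. Cox7a2 (94.4 to 171 CPM per kb) and Cox7a2l (172 to 282 CPM per kb) are both at high levels.

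Long against short restriction without acetate asks how the respiratory genes differ between 120 h and 24 h in low glucose. In both day comparisons the d9 cells had also been longer in culture since activation, and no cells in high glucose were analysed. The length of restriction and the time since activation therefore cannot be told apart. Most of the respiratory genes were modestly higher at d9. Among those past the threshold Cox7a1, Atp5d and Ndufv3 rose, and Cox6b2, Ndufa4, Uqcrb and Ndufs1 fell. In all, 12 rose and 4 fell at an adjusted p under 0.05 (edgeR quasi-likelihood test, Benjamini-Hochberg over 13182 genes), which is 18% of the 89 tested, while 37.1% of all genes tested passed in this comparison, 15.9% higher and 21.2% lower. An unadjusted p under 0.05 was found for 33 of the 89, beside 47% of all genes. The log2 change was positive in 75 of the 89, beside 49.2% of all genes, with a median of 0.22 beside -0.01 over all genes tested. That median was 0.09 with the ribosomal share of each library as a covariate, 0.12 with scaling by library size alone and 0.14 without both d9 libraries of high ribosomal share. Other lists moved with it, and their part in the result was not tested: 73 of 78 cytosolic ribosomal genes were higher at d9 (median 0.34) and 65 of 77 mitochondrial ribosomal genes (median 0.22), 5 of 8 CD8 T cell markers rose (median 0.44), and both NK cell markers that could be tested, Klrb1c and Fcer1g, rose by 2.06 to 2.86 on the log2 scale. In 49 genes every d9 library lay above every d5 library and in 6 below, beside 29.7% and 33.4% of all genes.

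By complex, 5 of 36 complex I genes rose and 1 fell, 1 of 8 complex III genes rose and 1 fell, 2 of the 15 tested complex IV genes rose and 2 fell, and 4 of 16 ATP synthase genes rose with none lower past the threshold. The shares called were 16.7%, 25%, 26.7% and 25% in that order, each below the 37.1% over all genes with edgeR (15.9% higher, 21.2% lower). Differences between complexes were not tested. None of the 4 complex II genes passed with edgeR, DESeq2 or limma-voom, and none had an unadjusted p under 0.05. Of the 8 assembly factors none passed with edgeR or limma-voom and 1 with DESeq2, and 1 had an unadjusted edgeR p under 0.05, while 37% of all genes passed with DESeq2 and 36.6% with limma-voom.

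In complex I, the largest rise was that of Ndufv3 (chr17:31520115-31531331), an accessory subunit of the NADH-binding module. It was read at 109, 112 and 108 CPM in d9, against 71.1 and 58.3 CPM in d5, with no overlap between the groups. Its log2 change was 0.76 ± 0.13 (SE; adjusted p = 0.00114). Ndufs1 (chr1:63143596-63176833), the largest core subunit of complex I and a carrier of iron-sulphur clusters in the same module, went the other way, at 58.8, 54.4 and 54.2 CPM in d9, against 78.9 and 70.2 CPM in d5. Its change was -0.42 ± 0.12 (adjusted p = 0.022). The other complex I genes that rose were accessory subunits. Ndufa13 had 173, 126 and 137 CPM in d9, against 102 and 86.6 CPM in d5 (log2 change 0.62). Ndufa7 had 174, 130.5 and 147 CPM in d9, against 103 and 98.7 CPM in d5 (0.58). Ndufa9 (0.38) and Ndufa10 (0.36) rose least of the 5. Ndufs1 lies over Eef1b2 on the opposite strand, an abundant gene at 1253 to 1902 CPM, and whether reads were counted by strand is not stated.

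In ATP synthase, Atp5d (chr10:80138632-80145818), the δ subunit of the central stalk, was the most changed gene. It stood at 441, 411 and 441 CPM in d9, against 267 and 241 CPM in d5, which is a log2 change of 0.76 ± 0.13 (adjusted p = 0.00114). Every d9 library was above both d5 libraries. Atp5d overlaps an exon of Cbarp on the opposite strand, which was read at 10.6 to 47.3 CPM. The c-ring gene Atp5g1 (chr11:96068852-96075670) had 223, 201 and 227 CPM in d9, against 162 and 145 CPM in d5, and rose by 0.50 ± 0.12 (adjusted p = 0.00765). The other c-ring genes gave changes of 0.15 ± 0.13 for Atp5g2 and 0.08 ± 0.12 for Atp5g3, neither past the threshold, and the difference between the c-ring genes was not tested. The remaining 2 that rose belong to the membrane sector. Atp5l, the g subunit, had 71.2, 48.3 and 57.9 CPM in d9, against 40.4 and 37.2 CPM in d5 (log2 change 0.61), and Atp5k, the e subunit, had 85.9, 64 and 73.5 CPM in d9, against 56.4 and 49.9 CPM in d5 (0.49).

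Complex IV held the extremes. Cox7a1 (chr7:30184144-30186078), the heart and muscle form of subunit 7A, was low in all libraries but rose, at 4.34, 3.30 and 2.22 CPM in d9, against 0.993 and 0.759 CPM in d5 (log2 change 1.90 ± 0.42, adjusted p = 0.00545). Cox6b2 (chr7:4751792-4753094), the form of subunit 6B known from testis, fell, at 0.224, 0.423 and 0.348 CPM in d9, against 1.21 and 1.99 CPM in d5 (-2.24 ± 0.37, adjusted p = 0.00109). Its values rest on 5 to 10 counts per library in d9, against 22 and 34 counts in d5. Cox6b2 passed the filter on low counts only through the d5 libraries, where it is higher, so the filter itself favoured a fall at d9. The genes of higher level related to Cox7a1 and Cox6b2 were not past the threshold on adjusted p. Cox7a2 changed by 0.08 ± 0.18, Cox7a2l by 0.43 ± 0.18 and Cox6b1 by 0.38 ± 0.15 on the log2 scale. The differences between the genes of a pair were not tested.

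Ndufa4 (chr6:11900292-11907497), first described as a complex I protein and since assigned to complex IV, fell by 0.74 ± 0.20 on the log2 scale (adjusted p = 0.0132). Its values were 70.8, 53.8 and 61.1 CPM in d9, against 108 and 98.9 CPM in d5, with no overlap. Cox5b, a nuclear subunit of complex IV that binds zinc, rose by 0.41, with 249, 209 and 243 CPM in d9, against 181 and 171 CPM in d5. In complex III, Uqcrq rose by 0.55, with 395, 293 and 357 CPM in d9, against 260.3 and 215 CPM in d5. Uqcrb (chr13:66900617-66905378), a small subunit near the quinone site, fell by 0.56 ± 0.18 (adjusted p = 0.0321), with 23.4, 16.3 and 17.0 CPM in d9, against 31.2 and 24.6 CPM in d5. Of the 50-base stretches in Uqcrb exons 25.5% also occur in another gene, and 28.5% of those in Ndufa13, so that the counting may have split their reads.

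The number of calls rested on single libraries: it was 5 without d5 replicate 1 (21.6% of all genes passed in that fit), 4 without d5 replicate 2 (20.5%), 8 without d9 replicate 3 (29.7%) and 34 without replicate 2 of d9 with acetate (41.2%). With scaling by library size alone 5 rose and 4 fell, with 36.4% of all genes past the threshold. Ndufv3, Atp5d and Cox6b2 passed whichever library was left out, with adjusted p of at most 0.0209. For Cox6b2 this adds no independent support, as the gene was tested only through its higher d5 libraries. Cox7a1 missed the threshold only without d5 replicate 2 (0.0578), as did Atp5g1 (0.0855), and Ndufa4 only without d5 replicate 1 (0.0898) or d5 replicate 2 (0.053). Ndufs1 missed it without d5 replicate 1 (0.168), d5 replicate 2 (0.0536), d9 replicate 2 (0.0638) or d9 replicate 3 (0.0674), and Uqcrb without d5 replicate 1 (0.254), d9 replicate 2 (0.0994) or d9 replicate 3 (0.0981). Each of the other 8 genes missed it without d5 replicate 1 and also without d5 replicate 2, with adjusted p of 0.0646 to 0.262. For Ndufa7 this held for no other library, while Ndufa10 also missed it without d9 replicate 3, Ndufa13 without d9 replicate 1, and Cox5b and Atp5l without either. Atp5k, Ndufa9 and Uqcrq also missed it without d9 replicate 1, d9 replicate 3 or either d5 library with acetate, as did Ndufa9 without d9 replicate 2 or replicate 3 of d9 with acetate and Atp5k without replicate 1 of d9 with acetate.

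**Figure D3:**
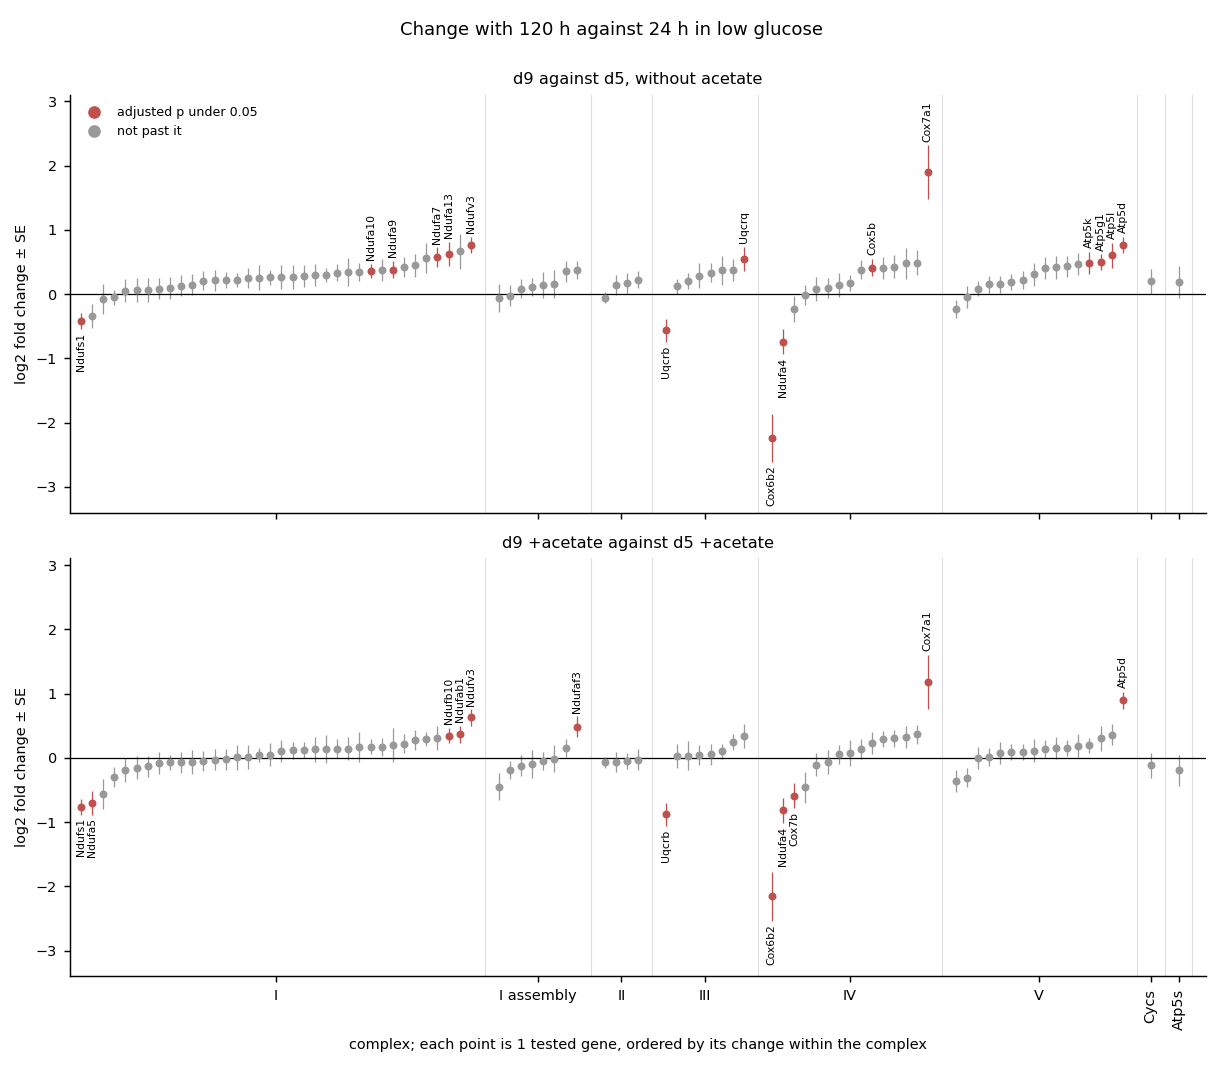
Log2 fold change ± SE (edgeR) of the 89 tested genes at d9 against d5, by complex, without acetate (upper panel) and with acetate (lower panel); red points have an adjusted p under 0.05. Most points of the upper panel lie above 0 (75 of 89), while the lower panel is split (53 of 89), and Cox7a1 and Cox6b2 lie farthest from 0 in both.

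Over the same span of restriction with acetate, respiratory genes changed in both directions. Atp5d, Ndufv3 and Cox7a1 rose again, with Ndufaf3, Ndufab1 and Ndufb10, and Cox6b2, Uqcrb, Ndufa4 and Ndufs1 fell again, with Ndufa5 and Cox7b. This made 6 higher and 6 lower at an adjusted p under 0.05, or 13.5% of the 89, beside 41.6% of all genes tested, 18.5% higher and 23.1% lower. The unadjusted p was under 0.05 in 17 of the 89, beside 50.7% of all genes. The log2 change was positive in 53 genes, beside 49.2% of all genes, with a median of 0.06 beside -0.01 over all genes. This direction turned without both d9 libraries of high ribosomal share, where 29 genes were positive with a median of -0.10 and 4 rose and 13 fell. It also turned with scaling by library size alone, where 38 were positive with a median of -0.05, and without replicate 2 of d9 with acetate alone, where 37 of 90 were positive with a median of -0.06. In 20 genes every d9 library with acetate lay above every d5 library with acetate and in 12 below, beside 29.1% and 33.4% of all genes.

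The 7 genes called in both day comparisons changed in the same direction in both. They are 43.8% of the 16 without acetate and 58.3% of the 12 with acetate. These comparisons share no library, but they are not independent, as both come from the same fit with a shared filter, scaling and estimate of spread. Over all genes tested, the shared calls were 75.4% of those without acetate and 67.4% of those with acetate.

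Atp5d had 348, 450.0 and 419 CPM in d9 with acetate, against 224 and 212 CPM in d5 with acetate (0.90 ± 0.13, adjusted p = 0.000416). Ndufv3 had 80.5, 81.6 and 96.1 CPM, against 53.2 and 57.9 CPM in the same groups (0.63 ± 0.13, adjusted p = 0.00301). For both, the groups did not overlap, as for 29.1% of all genes in this direction. Ndufs1 had 59.2, 61.2 and 51.0 CPM in d9 with acetate, against 104 and 90.04 CPM in d5 with acetate (-0.76 ± 0.12, adjusted p = 0.000798). Uqcrb had 18.8, 21 and 16.6 CPM in d9 with acetate, against 34.4 and 34.6 CPM in d5 with acetate (-0.88 ± 0.18, adjusted p = 0.00312). Both were thus lower in every d9 library with acetate, as were 33.4% of all genes.

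Ndufa4 gave 49.8, 71.3 and 42.4 CPM in d9 with acetate, against 91.9 and 99.9 CPM in d5 with acetate (-0.82 ± 0.20, adjusted p = 0.00751). Cox6b2 gave 0.295, 0.229 and 0.426 CPM in d9 with acetate, against 1.40 and 1.47 CPM in d5 with acetate (-2.15 ± 0.38, adjusted p = 0.00134). Cox7a1 gave 2.36, 2.52 and 1.24 CPM in d9 with acetate, against 0.673 and 1.10 CPM in d5 with acetate (1.18 ± 0.43, adjusted p = 0.0455). All 3 pairs of groups were without overlap, but the lowest Cox7a1 value at d9 lay close to the highest at d5. Over all genes 29.1% were higher and 33.4% lower in every d9 library with acetate.

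Among the genes called with acetate alone, Ndufa5 (-0.70 ± 0.18, adjusted p = 0.0117), an accessory subunit of complex I, had 11.7, 16 and 11.1 CPM in d9 with acetate, against 22.6 and 19.5 CPM in d5 with acetate. Cox7b, a complex IV subunit, fell by 0.59 ± 0.20, with 51.3, 58.2 and 44.3 CPM in d9 with acetate, against 74.9 and 79 CPM in d5 with acetate. The rises were smaller. Ndufaf3, an assembly factor that acts together with Ndufaf4, rose by 0.49 ± 0.16, with 26.7, 31.5 and 25.6 CPM in d9 with acetate, against 19.2 and 20.6 CPM in d5 with acetate. Ndufab1, the mitochondrial acyl carrier protein, rose by 0.37 ± 0.13, with 45.1, 57.3 and 55.5 CPM in d9 with acetate, against 42.9 and 38.7 CPM in d5 with acetate. Ndufb10, in the membrane arm of complex I, rose by 0.35 ± 0.12, with 66, 81.2 and 73.7 CPM in d9 with acetate, against 55 and 60.6 CPM in d5 with acetate. In all 5 the groups were without overlap, where 29.1% of all genes were higher and 33.4% lower in every d9 library with acetate. These genes were called on the same libraries, so the lack of overlap adds no support. That these genes passed with acetate and not without it does not show a difference between the acetate states, whose test is given below.

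Here the count was 6 without d5 acetate replicate 1 (22.8% of all genes passed in that fit) and 6 without d5 acetate replicate 2 (26.7%). With scaling by library size alone 2 rose and 9 fell, with 40.4% of all genes past the threshold. Atp5d, Ndufv3, Ndufs1, Uqcrb and Cox6b2 passed whichever library was left out, with adjusted p of at most 0.0398. Here too Cox6b2 was tested only through its higher d5 libraries. Ndufa4 missed the threshold without d5 acetate replicate 2 (0.0528) and Ndufa5 without d5 acetate replicate 1 (0.09995). Cox7a1 missed it in 7 of the 10 fits that leave out a library, all but those without d9 replicate 1, d9 replicate 3 or replicate 3 of d9 with acetate (highest 0.246, without d5 acetate replicate 1), Ndufab1 in 8 (highest 0.240, without d5 acetate replicate 2), Ndufb10 in 8 (highest 0.221, without d5 acetate replicate 1), Cox7b in 5 (highest 0.154, without d5 acetate replicate 2) and Ndufaf3 in 3 (highest 0.158, without d5 acetate replicate 1). Cox7a1, Ndufab1 and Ndufb10 also missed it without both d9 libraries of high ribosomal share.

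**Figure D4:**
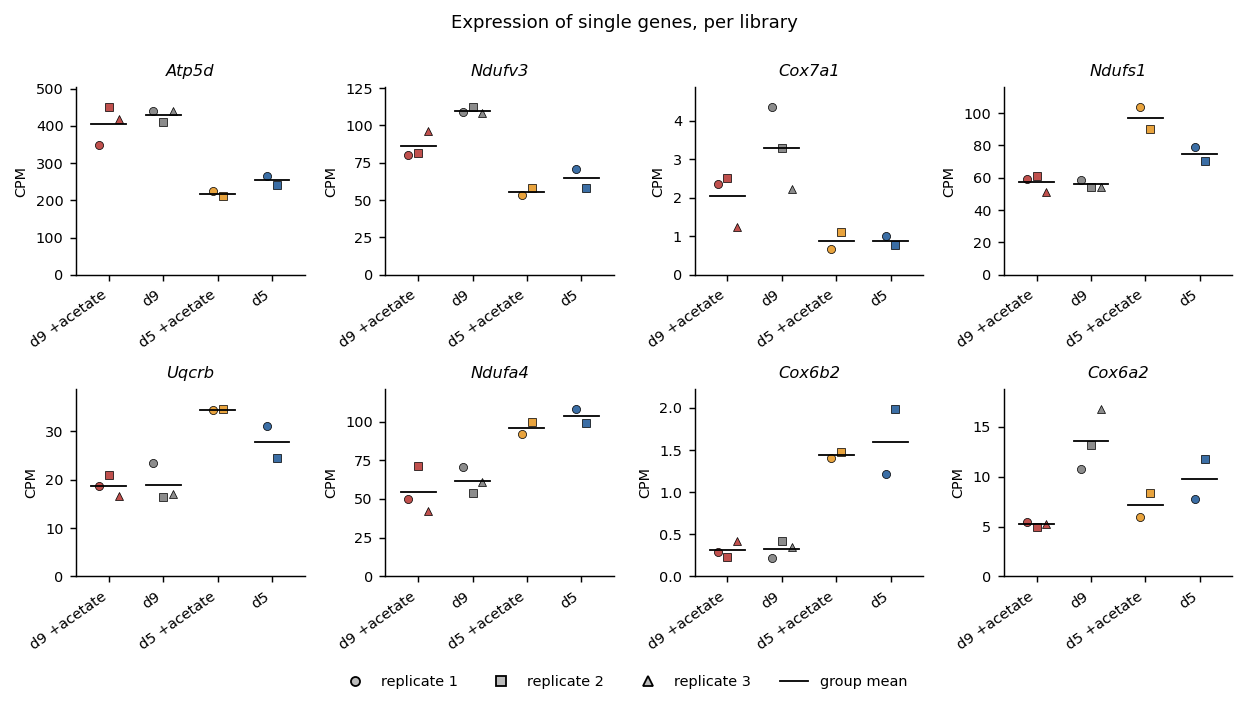
CPM (linear axes from 0) of 8 genes in each library; symbols are replicates and bars are group means. Atp5d, Ndufv3 and Cox7a1 are higher and Ndufs1, Uqcrb, Ndufa4 and Cox6b2 lower in the d9 libraries than in the d5 libraries of the same acetate state, and Cox6a2 is at 4.95 to 5.48 CPM in d9 with acetate beside 10.8 to 16.8 CPM in d9.

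Acetate at d9 asks what 1 day of acetate does after long restriction. The respiratory genes were mostly lower with acetate by a small amount, and none passed the threshold. Of the 89 tested, 0 had an adjusted p under 0.05 with edgeR or limma-voom and 1, Cox6a2, with DESeq2, while of all genes 0.0303% passed with edgeR, 0.0303% with limma-voom and 2.34% with DESeq2. The unadjusted edgeR p was under 0.05 in 20 of the 89, beside 15.4% of all genes. Single libraries moved this count, from 9 without replicate 1 of d9 with acetate, 10 without its replicate 3, 10 without d9 replicate 1 and 12 without d9 replicate 3 to 47 of 90 without replicate 2 of d9 with acetate, and it was 42 without both libraries of high ribosomal share. The log2 change was negative in 80 of the 89, beside 49% of all genes, among them 35 of 36 complex I genes, all 15 tested complex IV genes, 15 of 16 ATP synthase genes and all 4 complex II genes. The median was -0.20, beside 0.01 over all genes tested, and across the fits that leave out 1 library of either d9 group in turn it stayed below 0, from -0.33 without replicate 2 of the acetate group to -0.11 when d9 replicate 1 was left out. It was -0.24 without both libraries of high ribosomal share and -0.14 with the ribosomal share as a covariate. The number of genes with a positive change, 9 in the main fit, was 16 and 22 in these 2 fits. Over the same fits that leave out 1 library, it ran from 5 of 90 without replicate 2 of the acetate group to 28 of 89 without d9 replicate 1. The genes for ribosomal proteins were also mostly lower with acetate at d9, 65 of the 78 cytosolic ones with a median of -0.08 and 58 of the 77 tested mitochondrial ones with a median of -0.09, and their part in the result was not tested. The 9 respiratory genes with a positive change included Cycs, Ndufs1 and 4 of the 8 assembly factors.

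In 12 genes every d9 library with acetate lay below every d9 library without it, beside 8.79% of all genes. They were Ndufa11, Ndufs7, Ndufs8, Ndufv1 and Ndufv3 of complex I, Sdhc of complex II, Cox6a1, Cox6a2 and Cox6b1 of complex IV, and all 3 c-ring genes, Atp5g1, Atp5g2 and Atp5g3. Ndufaf4 was the 1 gene with every acetate library higher, beside 9.9% of all genes. Atp5g1 had 165, 195 and 172 CPM in d9 with acetate, against 223, 201 and 227 CPM in d9. Atp5g3 had 229, 230.5 and 240.4 CPM in d9 with acetate, against 243, 288 and 311 CPM in d9. The c-ring changes were -0.29 ± 0.10, -0.27 ± 0.11 and -0.27 ± 0.10 for Atp5g1, Atp5g2 and Atp5g3, with adjusted p of 0.231, 0.289 and 0.266.

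Cox6a2 (chr7:128205435-128206387), the muscle form of subunit 6A, had the smallest p. It was read at 5.48, 4.95 and 5.24 CPM in d9 with acetate, against 10.8, 13.2 and 16.8 CPM in d9, which is a log2 change of -1.38 ± 0.22 (adjusted p = 0.0712). The groups did not overlap, and the value missed the threshold set over all genes. It passed without d9 replicate 1 (0.0418), without both libraries of high ribosomal share (0.0281), with the ribosomal share as a covariate (0.00969), with DESeq2 (1.03e-05) and with a filter of at least 1 count (2.34e-07), and over all alternatives the adjusted p was 2.34e-07 to 0.264. Itgad, which lies over it on the opposite strand, had at most 0.210 CPM. Cox6a1, the major gene, changed by -0.33 ± 0.14 (adjusted p = 0.282).

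Ndufs8, a core subunit of complex I with iron-sulphur clusters, had 73.7, 101 and 72.3 CPM in d9 with acetate, against 129, 103 and 115 CPM in d9 (-0.49 ± 0.14, adjusted p = 0.171). It passed only without both libraries of high ribosomal share (0.0281) and with the ribosomal share as a covariate (0.0125). Ndufaf4, an early assembly factor of complex I, stood on the other side, with 32.8, 37.0 and 29.8 CPM in d9 with acetate, against 28.7, 24.0 and 22.5 CPM in d9 (0.41 ± 0.13, adjusted p = 0.192). With the ribosomal share of each library as a covariate 1 gene, Ndufaf4, was higher and 13 were lower with acetate past the threshold, Cox6a2 and Ndufs8 among them, when 7.24% of all genes passed.

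**Figure D5:**
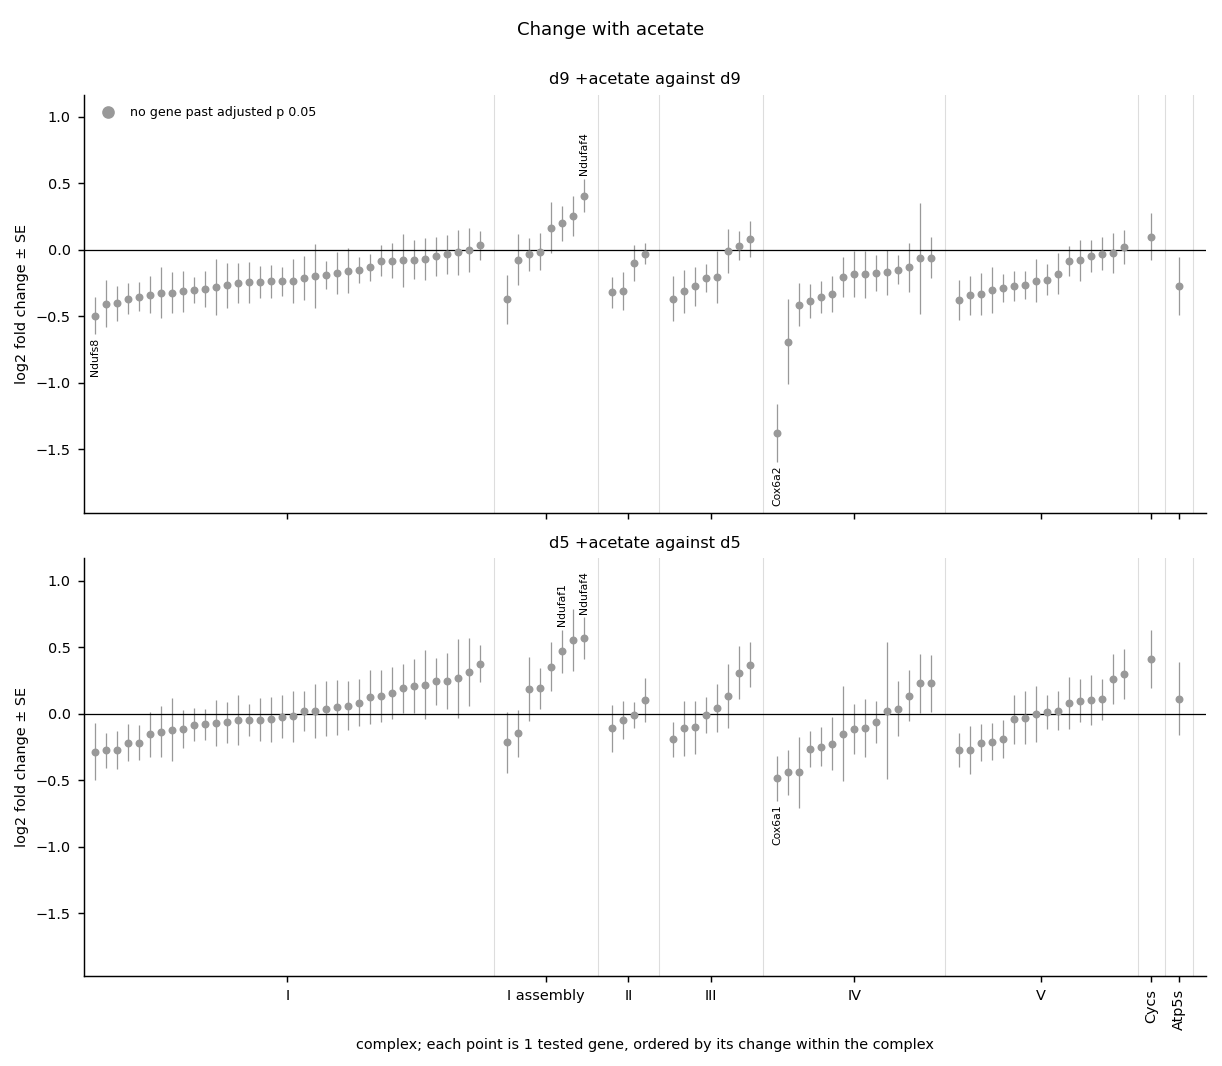
Log2 fold change ± SE (edgeR) of the 89 tested genes with acetate at d9 (upper panel) and at d5 (lower panel), by complex; no gene had an adjusted p under 0.05. The points lie mostly below 0 at d9 (80 of 89) and on both sides of 0 at d5 (46 of 89 below), and Cox6a2 lies farthest from 0 at d9.

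Acetate at d5, given through the whole 24 h of restriction, left the respiratory genes on both sides of no change. Of the 89, 0 passed with edgeR or limma-voom and 1, Ndufaf4, with DESeq2, beside 1.52% of all genes with edgeR, 1.28% with limma-voom and 5.51% with DESeq2. An unadjusted edgeR p under 0.05 was found for 6, beside 19.8% of all genes. The log2 change was negative in 46, beside 48.7% of all genes, and positive in 43, with a median of -0.01 beside 0.01 over all genes. With the ribosomal share as a covariate 21 were positive, with a median of -0.14, and 29 had an unadjusted p under 0.05. Leaving out a d5 library gave 32 (without d5 acetate replicate 2) to 54 (without d5 replicate 1) positive of 90, with medians of -0.07 to 0.07. In 22 genes both acetate libraries lay above both libraries without acetate and in 21 below, beside 29.8% and 29.2% of all genes.

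The smallest p was that of Ndufaf4 (chr4:24898083-24905001), at 34.2 and 34.4 CPM in d5 with acetate, against 22.6 and 23.8 CPM in d5 (0.57 ± 0.16, adjusted p = 0.0949). With the values at d9, this gene was higher in all 5 acetate libraries than in the libraries without acetate of the same day. Of all genes, 9.9% were higher in every acetate library at d9 and 29.8% at d5. The share over both days was not counted, and Ndufaf4 passed on neither day in the main fit. Its adjusted p at d5 was 0.0322 with DESeq2, 0.0212 on the d5 libraries alone, 0.0356 with the ribosomal share as a covariate and 0.00811 without the 2 d9 libraries of high ribosomal share, and 0.0509 to 0.357 over the fits that leave out 1 library. Ndufaf1, another assembly factor of complex I, had 20.3 and 24.7 CPM in d5 with acetate, against 15.8 and 16.7 CPM in d5 (0.47 ± 0.16, adjusted p = 0.161). Cox6a1 had 194 and 156 CPM in d5 with acetate, against 261 and 229.5 CPM in d5 (-0.49 ± 0.17, adjusted p = 0.160). Of the 8 assembly factors 6 had a positive change with acetate at d5, with a median of 0.27, and none passed with edgeR.

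The difference between the acetate effects at the 2 days was tested directly. None of the 89 genes passed with edgeR, DESeq2 or limma-voom, while of all genes 0% passed with edgeR, 0.721% with DESeq2 and 0% with limma-voom. An unadjusted edgeR p under 0.05 was found for 1 gene, beside 7.7% of all genes. The difference, d9 minus d5, was negative in 79 genes, beside 51.1% of all genes, with a median of -0.21. With the ribosomal share as a covariate 44 of the 89 were positive and the median was -0.01, and without d9 replicate 1 it was -0.11. The number of unadjusted p under 0.05 was 22 without replicate 2 of d9 with acetate and 15 without both d9 libraries of high ribosomal share. Cox6a2 had the smallest p, with a difference of -0.94 ± 0.34 (unadjusted p = 0.0197, adjusted p = 0.527). Ndufs1 followed at -0.34 ± 0.18 and Ndufs8 at -0.42 ± 0.22 (adjusted p = 0.700 each). The effect at d9 and at d5 can therefore not be called different for any of these genes.

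Complex II, the one complex without a mitochondrial gene, had none of its 4 genes past the threshold with edgeR, DESeq2 or limma-voom in any of the 5 comparisons, and 1 unadjusted edgeR p under 0.05, that of Sdhc for acetate at d9. With the ribosomal share as an added covariate in edgeR, Sdhc (adjusted p = 0.0475) and Sdhb (0.0499) were lower with acetate at d9 past the threshold. Sdha, its flavoprotein, had 146, 148 and 144 CPM in d9 with acetate, 147, 149 and 151 CPM in d9, 154 and 153 CPM in d5 with acetate and 158 and 151 CPM in d5. Its log2 change was -0.05 ± 0.09 at d9 against d5 without acetate and -0.07 ± 0.09 with acetate. Sdhb, the iron-sulphur subunit, had 151, 205 and 148 CPM in d9 with acetate, against 237, 184 and 203 CPM in d9, and 163 and 179.7 CPM in d5 with acetate, against 192 and 178 CPM in d5. The membrane anchor Sdhd had 110.5, 149 and 113 CPM in d9 with acetate, against 149, 126 and 124 CPM in d9, and 123 and 137 CPM in d5 with acetate, against 129 and 113 CPM in d5. Both overlapped between the acetate states of each day. Sdhc had 81.3, 91.9 and 71.5 CPM in d9 with acetate, against 114, 94.1 and 97.8 CPM in d9 (-0.32 ± 0.12, adjusted p = 0.236). Cycs had 77.05, 106 and 73.7 CPM in d9 with acetate and 97.8, 64.6 and 77.4 CPM in d9, and 83.9 and 101 CPM in d5 with acetate, against 70.06 and 69.4 CPM in d5, and passed in no comparison with edgeR, where its unadjusted p was under 0.05 in none. With the 2 d9 libraries of high ribosomal share left out, its adjusted p for acetate at d5 was 0.0444.

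Genes that serve the respiratory chain without the chosen prefixes were counted beside it. Of 43 tested assembly factors outside the Nduf prefix, 8 rose at d9 without acetate, or 18.6% of them called beside 37.1% of all genes, and none fell, with Sco2, which delivers copper to complex IV, up by 0.64 ± 0.15 (14.2, 15 and 16.5 CPM in d9, against 9.27 and 10.3 CPM in d5), and with acetate 5 rose and 2 fell (16.3%, beside 41.6% of all genes). Of 77 tested mitochondrial ribosomal protein genes 5 rose and 2 fell without acetate (9.09%), and 6 rose and 8 fell with it (18.2%), both below the shares over all genes. Hccs, which attaches heme to cytochrome c, fell by 0.86 ± 0.15 without acetate and by 1.00 ± 0.14 with acetate. It was read at 21.5, 17.4 and 17.9 CPM in d9 with acetate and 16.4, 13.2 and 13.2 CPM in d9, against 38.1 and 37.6 CPM in d5 with acetate and 24.9 and 26.9 CPM in d5.

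Of 16 tested regulators of mitochondrial biogenesis, 1 rose and 3 fell at d9 without acetate (25% called, beside 37.1% of all genes), and 4 rose and 6 fell with acetate (62.5%, beside 41.6%). Gabpa, the DNA-binding part of the ETS factor GABP, fell by 1.25 ± 0.14 without acetate and by 1.20 ± 0.14 with acetate. It was at 33, 25.9 and 25.2 CPM in d9 with acetate and 25.1, 24.2 and 25.7 CPM in d9, against 70.0 and 58.7 CPM in d5 with acetate and 62.5 and 56.1 CPM in d5. Esrra, the oestrogen-related receptor α, rose by 0.57 ± 0.11 without acetate, with 59.8, 65.1 and 59.5 CPM in d9, against 43.9 and 38.7 CPM in d5. Tfb2m fell by 0.79 ± 0.19 without acetate and by 1.27 ± 0.18 with acetate. In d9, Tfb2m was at 6.45, 5.86 and 4.52 CPM with acetate and 5.69, 4.91 and 5.74 CPM without. In d5, it was at 13.8 and 13.2 CPM with acetate and 8.28 and 10.6 CPM without. Tfam fell by 0.76 ± 0.15 with acetate. It had 46.6, 57.3 and 41.7 CPM in d9 with acetate, against 82.2 and 82.2 CPM in d5 with acetate. Polg, the polymerase that copies mitochondrial DNA, fell by 1.42 ± 0.14 without acetate and by 1.10 ± 0.14 with acetate, and at d5 it was lower with acetate by 0.78 ± 0.16 (adjusted p = 0.0411), with 53.8 and 48.3 CPM in d5 with acetate, against 82.0 and 93.0 CPM in d5. No gene of all those tested for acetate at d5 passed without d5 replicate 2, d5 acetate replicate 1 or d5 acetate replicate 2, so this call is lost without any of these libraries. Any part of these changes in those of the respiratory genes was not tested. Of the 18 genes that were called in a day comparison and have a promoter window, 2 hold the NRF1 motif (Atp5k and Ndufa5), 1 the YY1 motif (Ndufa9), 3 the E-box, 8 the CCAAT box, and none the GABP site or the receptor motif. Over the 75 respiratory genes with windows, the shares were 25.3% for NRF1, 10.7% for YY1, 6.67% for the E-box and 45.3% for CCAAT. For the GABP site and the receptor motif they were 6.67% and 2.67%. Over all genes with windows the shares were 5.19%, 1.64%, 8.09%, 41.1%, 4.31% and 0.466%, in that order.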

How the data were processed

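The 10 libraries were made from polyadenylated RNA with a stranded kit, per the labels' protocols, and grouped by their labels. As deposited, the tables hold unnormalised read counts for each gene. The submitters' processing notes name STAR, featureCounts, DESeq2, deepTools and GRCm38 without their roles; how strand was handled in counting and which annotation was used is not stated. Gene IDs were matched to GENCODE M21 (53360 of 53465; the 105 others held at most 0.00689% of a library). Library totals were 16.59 to 24.66 M counts.

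A filter for low counts (filterByExpr, by group) left 13182 genes, scaled by TMM. Means of the 4 groups were fitted with edgeR 4.0.16 in R 4.3.3 (robust quasi-likelihood, 6 residual degrees of freedom, biological coefficient of variation 0.161), and p-values were adjusted over all genes (Benjamini-Hochberg, threshold 0.05). The comparisons were acetate at d9, acetate at d5, day without acetate, day with acetate, and the difference between the acetate effects. SE was obtained from the log2 change and the F statistic. CPM values use TMM-scaled totals. The fit was tested on simulated data. Alternatives were other scalings, filters and tests (DESeq2 1.42.0, voom of limma 3.58.1), fits on fewer libraries, a replicate block and a ribosomal share covariate.

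The members and gene lists were chosen with earlier results of these data known. Genes were named by rule: per comparison, up to 10 of highest and 10 of lowest log2 change among those past the threshold, or, where fewer than 3 passed, the 3 of smallest p; the gene of highest level per kb of each complex; Cycs, complex II and the isoform sets; and, of the other lists, some of the up to 4 called genes of smallest p. Ndufa9 and Ndufa10, outside it, and the genes lower or higher in every library were named after their values were seen. Of the 94 genes, 29 overlap an exon on the opposite strand and 5 on the same strand, and 53 share 50-base stretches with another gene (Ndufaf2 64.1%).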

Additional observations from a re-analysis of the deposited data

How the results depend on the processing

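For the genes past the threshold in a comparison, or of smallest p where none passed, the alternatives gave 735 values in that comparison. None of these turned direction, 601 kept their side of the threshold, 119 were no longer past it and 15 were newly past it. Changes of other genes near 0, such as Cycs and Sdhb, were not followed in this way. Counts of respiratory genes past the threshold moved as follows, and the cause was not tested. For acetate at d9 (0) the count was 1 with a filter of at least 1 count (0.849% of all genes), 1 with DESeq2, 14 with the ribosomal share covariate (7.24%) and 2 without both d9 libraries of high ribosomal share (1.65%), and 0 to 1 over single libraries left out (1 without d9 replicate 1). For acetate at d5 (0) it was 1 with DESeq2, 3 on only the libraries compared (13.9%), 4 with the covariate (8.19%), 7 without both libraries (16.7%), and 0 to 0 over single libraries. For d9 against d5 without acetate (16) it was 9 with library size only, 27 with at least 1 count (21.1%), 10 with the replicate block (32.2%), 27 without both libraries (46%), and 4 to 34 over single libraries. For d9 against d5 with acetate (12) it was 32 with the covariate (54.7% of all genes; 21 higher, 11 lower) and 6 to 16 over single libraries. For the difference of acetate effects it was 0 in all, and the fit on only the libraries compared is the fit on all libraries.

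Scaling by library size alone shifted the median of all genes by -0.10 in both day comparisons, so directions are relative to that shift. Replicate numbers share only a number: same-numbered libraries with and without acetate correlated at -0.14, -0.39 and 0.33 at d9 and 0.03 at d5 (deviations from group means), so the block is no pairing. Cox6b2 did not pass the filter of 2 CPM in 2 libraries and has no value there. Groups of 2 or 3 libraries limit the precision of all changes, and that of Cox6b2 rests on 5 to 34 counts per library. Groups of 2 and 3 are too small for a test of outlying libraries.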
